A study of Mus musculus with 6 samples.

Results

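The cholesterol synthesis genes described here are Srebf2, Hmgcs1, Idi1, Fdps, Sqle, Cyp51 and Dhcr7, 7 of the 19938 genes that the arrays measured with a named probe set. They were chosen by name, as rows of the deposited value table whose annotation gives 1 of these symbols and no other, and the probe set with the highest mean was taken for each gene. None of the 7 encodes a lipoprotein receptor, so uptake is described from a separate list of receptors.

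RNA was taken from the whole hippocampus of male C57Bl/6J mice at postnatal day 70. Saline control mice and ethanol-treated mice had been injected under the skin on postnatal days 4 and 7, with 2 injections on each day, and each ethanol injection carried 2.5 g/kg. Each array read RNA pooled from 3 males of different litters, with 3 arrays and 9 mice in each group. The exposure ended long before the tissue was taken, and the comparison asks whether expression in the adult hippocampus differed after it. All values are log2 expression, in which a difference of 1 is a doubling, and errors on changes are standard errors from limma, a linear model that shares information on the spread across all probe sets.

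Cholesterol in the brain is made almost wholly in place, since lipoproteins of the blood do not cross the blood-brain barrier. Acetyl-CoA is turned into mevalonate and isoprenoid units, these are joined to squalene, and squalene is closed into a ring and modified to cholesterol. When sterol in the endoplasmic reticulum is low, the protein of Srebf2 is cut and moves to the nucleus, where it binds sterol regulatory elements and raises the enzymes' transcription. Oligodendrocytes use much cholesterol for myelin, and astrocytes supply it to adult neurons on apolipoprotein E particles.

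Promoter sequence from RefSeq on GRCm38.p6 was found for 5 of the 7 genes, with 7 promoters between them, and not for Fdps and Sqle. The 250 bases before the gene start are shown for the regulator, Srebf2, and for Hmgcs1 and Idi1, whose mean changes between the groups were the largest of the 7 in size. All 3 stretches lie on the plus strand and are written 5′ to 3′. Capitals mark a sterol regulatory element spelled TCACNCCAC or a CCAAT box, each on either strand, so that a CCAAT box on the opposite strand reads as its reverse complement.
Srebf2, chr15:82147019-82147268: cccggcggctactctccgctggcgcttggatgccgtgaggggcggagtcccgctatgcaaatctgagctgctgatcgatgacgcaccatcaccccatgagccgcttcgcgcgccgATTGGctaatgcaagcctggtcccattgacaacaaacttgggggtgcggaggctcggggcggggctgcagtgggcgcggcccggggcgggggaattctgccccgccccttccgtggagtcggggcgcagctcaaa
Hmgcs1, chr13:119690101-119690350: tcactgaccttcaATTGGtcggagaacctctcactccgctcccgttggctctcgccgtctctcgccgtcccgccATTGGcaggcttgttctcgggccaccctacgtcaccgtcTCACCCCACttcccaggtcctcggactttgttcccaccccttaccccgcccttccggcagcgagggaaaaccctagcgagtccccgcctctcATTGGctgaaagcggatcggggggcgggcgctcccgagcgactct
Idi1, chr13:8885356-8885605: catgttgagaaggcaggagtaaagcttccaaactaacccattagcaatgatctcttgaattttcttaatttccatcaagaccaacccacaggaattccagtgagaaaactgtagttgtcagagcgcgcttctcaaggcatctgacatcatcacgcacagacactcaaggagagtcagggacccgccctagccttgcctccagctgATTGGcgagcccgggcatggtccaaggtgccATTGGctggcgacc

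The search covered 300 bases, of which 50 lie after the gene start and are not shown. The sterol regulatory element was matched once, in Hmgcs1, with its first base at -137 counted from the start. Of all 32851 promoters, 1.24% hold these letters. Hmgcs1 also held 4 CCAAT boxes, of which 3 are in the stretch shown, against 2 in Idi1, 1 each in Srebf2 and Cyp51, and 2 in 1 of the 3 promoters of Dhcr7, and 37.4% of all promoters hold at least 1. The GC box GGGCGG, at which Sp1 binds, was found 5 times in Srebf2, 3 times in Hmgcs1 and once each in Idi1 and Cyp51. In Dhcr7 it was found 3 times in the promoter that holds the CCAAT boxes and once in another, and 35.7% of all promoters hold it. A match of letters is a description of the sequence, and a missing match says nothing of whether a factor binds.

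The arrays were alike, with a correlation of at least 0.997 between any of them and medians from 5.84 to 5.89. All 12 markers of hippocampal principal neurons were measured, with means of 6.62 or more. Genes that mark neighbouring tissue read differently between pools, and tissue carried over at dissection cannot be told apart from expression in the hippocampus itself. The mean of 16 thalamus markers was higher than in saline by 0.79, 0.29 and 0.14 in ethanol pools 1, 2 and 3, against -0.01 to 0.02 in the saline pools. This list holds Tcf7l2, Synpo2 and Vipr2, which the paper reports as higher in ethanol-exposed hippocampus on these arrays and by droplet digital PCR. That of 16 choroid plexus markers stood at 1.06, -0.26 and 0.64 in the ethanol pools and from -0.17 to 0.19 in the saline pools. Ethanol pool 1 was therefore the farthest from saline in both lists. Values without it are given for those of the 7 genes whose call it changed.

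The ethanol mean was below the saline mean in 6 of the 7. It was so in 49.9% of all genes and in 55.6% of genes above the median level, where all 7 lie. The changes ran from -0.13 for Idi1 to 0.03 for Dhcr7, with a median of -0.04. None of the 7 passed an unadjusted p of 0.05 in limma, a threshold that 5.22% of all genes passed, 2.8% higher and 2.41% lower in ethanol. After Benjamini-Hochberg adjustment 0 of 7 passed, and so did 0 of all 23410 probe sets tested (0%), of which 1202 had an unadjusted p under 0.05. In none of the 7 were the ethanol pools separate from the saline pools, whereas 10.4% of genes had groups that did not overlap. In bulk tissue a smaller share of a cell type and less RNA per cell cannot be told apart.

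**Figure D1:**
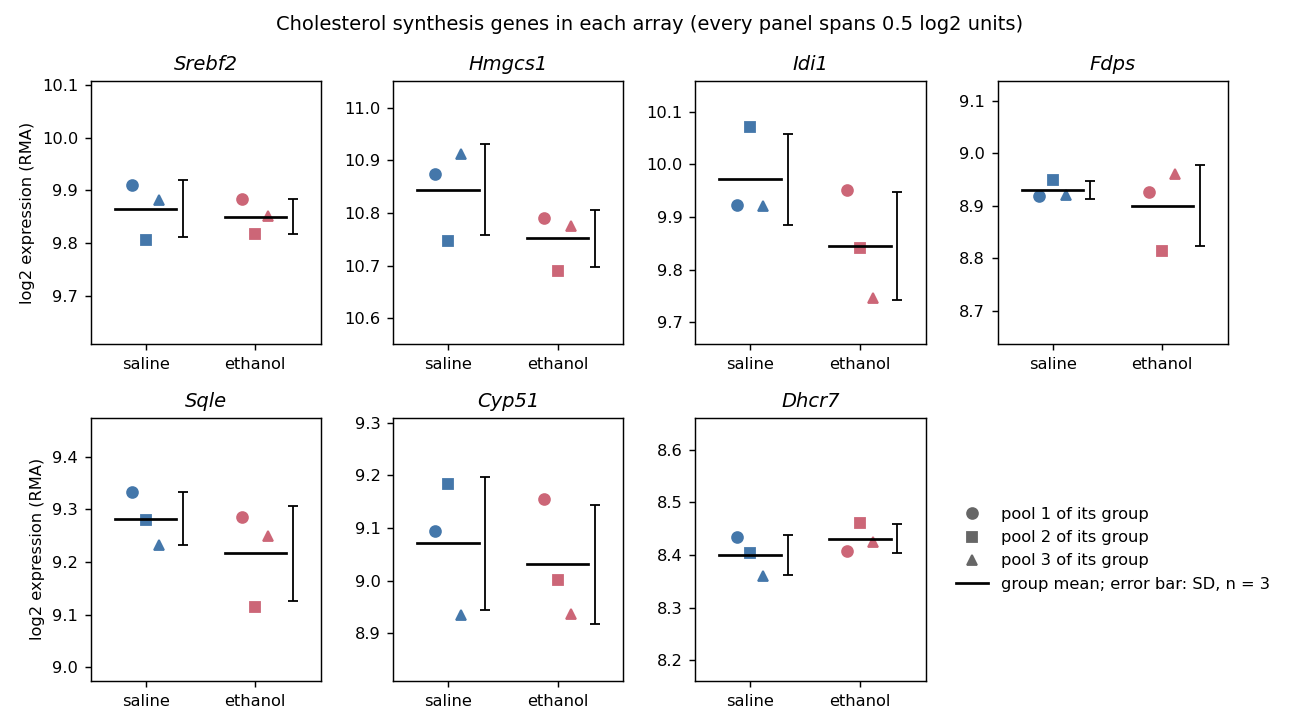
Log2 expression (vertical axis, RMA) of each of the 7 genes in the 3 saline pools (blue) and the 3 ethanol pools (red), with the group mean as a line and the SD (n = 3) as a bar beside it; every panel spans 0.5 log2 units. In all 7 panels the ranges of the groups overlap, with the ethanol mean lower in 6 and higher in Dhcr7.

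Srebf2 encodes the sterol-sensing transcription factor SREBP2. Its saline pools read 9.91, 9.81 and 9.88 and its ethanol pools 9.88, 9.82 and 9.85. The ethanol values lay wholly inside the saline range. The change was -0.02 ± 0.04, with a 95% confidence interval from -0.11 to 0.08, and the limma adjusted p was 0.985. On the linear scale this interval runs from -7.66% to 6.04%. A further probe set that carries Srebf2 together with 3 other symbols was left out by the rule for choosing rows.

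Hmgcs1 encodes the cytosolic HMG-CoA synthase, which makes the substrate of the rate-limiting step. It read 10.87, 10.75 and 10.91 in saline and 10.79, 10.69 and 10.78 in ethanol. Saline pools 1 and 3 were above every ethanol pool, and saline pool 2 was below ethanol pools 1 and 3. The ethanol mean was lower by 0.09, a change of -0.09 ± 0.05 with an interval from -0.22 to 0.03, and the limma adjusted p was 0.931. In percent, the change was -6.24%, with an interval from -13.9% to 2.13%. Without saline pool 2 the change was -0.14 ± 0.05, which passed the unadjusted threshold in limma but not the adjusted one. It was smaller, at -0.06 ± 0.06, without saline pool 3 and likewise without ethanol pool 2, and passed neither.

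Idi1 encodes the isopentenyl-diphosphate isomerase, which converts the basic isoprenoid unit into its reactive isomer. It had the largest change of the 7. The saline pools read 9.92, 10.07 and 9.92 and the ethanol pools 9.95, 9.84 and 9.75. Ethanol pools 2 and 3 were below all saline pools, and ethanol pool 1 was above 2 of them. The change was -0.13 ± 0.06, or -8.35%, with an interval from -17.2% to 1.43% and a limma adjusted p of 0.931.

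A second probe set of Idi1 gave a like pattern. It read 9.30, 9.44 and 9.28 in saline and 9.31, 9.25 and 9.09 in ethanol, a change of -0.12 ± 0.07. The annotation gives both probe sets the same transcripts, so they are not independent measurements of the gene. Whether either also reads a near-identical copy cannot be settled from the annotation, and the Idi1 values are uncertain to that extent. Without ethanol pool 1, the pool highest in the thalamus and choroid plexus lists, the change of the brighter probe set was -0.18 ± 0.06, which passed the unadjusted threshold in limma but not the adjusted one. It was -0.08 ± 0.06 without saline pool 2 and likewise without ethanol pool 3, and passed neither.

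Fdps encodes farnesyl diphosphate synthase, whose product is used for sterols and for the prenylation of proteins. Its saline pools were close together, at 8.92, 8.95 and 8.92, and its ethanol pools read 8.93, 8.81 and 8.96. Ethanol pool 2 alone was below the saline pools, and ethanol pool 3 was above them. The change was -0.03 ± 0.05, or -2.01%, with an interval from -9.08% to 5.61% and a limma adjusted p of 0.972. Without ethanol pool 2 the sign turned, to 0.01.

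Sqle encodes squalene epoxidase, which commits squalene to the sterol branch. It read 9.33, 9.28 and 9.23 in saline and 9.29, 9.11 and 9.25 in ethanol. Ethanol pools 1 and 3 were within the saline range and ethanol pool 2 was below it. The change was -0.07 ± 0.05, or -4.42%, with an interval from -12.3% to 4.16% and a limma adjusted p of 0.941. Without ethanol pool 2 it was -0.01.

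Cyp51 encodes the lanosterol demethylase, the cytochrome P450 of the pathway. It read 9.09, 9.18 and 8.94 in saline and 9.16, 9.00 and 8.94 in ethanol, and had the widest spread between pools of the 7. Its ethanol values lay within the saline range. The change was -0.04 ± 0.08, with an interval in percent from -13.7% to 9.68% and a limma adjusted p of 0.974. It turned to 0.02 without saline pool 2 and to 0.01 without ethanol pool 3.

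Dhcr7 encodes the reductase that makes cholesterol from 7-dehydrocholesterol, and it was the only gene of the 7 with a higher ethanol mean. It read 8.43, 8.40 and 8.36 in saline and 8.41, 8.46 and 8.42 in ethanol. Ethanol pool 2, the lowest pool for Hmgcs1, Fdps and Sqle, was here the highest of all 6. The change was 0.03 ± 0.04, or 2.16%, with an interval from -4.13% to 8.86% and a limma adjusted p of 0.964.

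The precision differed among the genes. The pooled SD between arrays was 0.0327 for Dhcr7, 0.045 for Srebf2, 0.0555 for Fdps, 0.0723 for Hmgcs1, 0.073 for Sqle, 0.095 for Idi1 and 0.119 for Cyp51. Among genes above the median level the median was 0.058, so Dhcr7, Srebf2 and Fdps were below it and the others above it. Taken over the 7 genes, the outer ends of the intervals were -17.2% for Idi1 on the lower side and 9.68% for Cyp51 on the higher side. In all arrays the 7 genes read between 8.36 and 10.91, above 5.37, the level under which 95% of 1190 genes of odorant and pheromone receptors fell, used here as a background. Signals of different genes were not compared as amounts of RNA, since probe sets differ in how strongly they bind, and in the lists that follow signal served only to choose which genes to name.

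The pools did not differ in the same way for all 7 genes. Ethanol pool 2 was below the saline mean in 6 of them, ethanol pool 3 in 5 and ethanol pool 1 in 3. The mean over the 7, as a difference from the saline mean, was -0.09, -0.06 and 0.01 in ethanol pools 2, 3 and 1, and from -0.03 to 0.02 in the saline pools. Without ethanol pool 2 the ethanol mean was below saline in 4 of the 7 genes.

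After each group's mean was taken off, the 21 pairs of the 7 genes had a median Pearson r of 0.13 over the 6 arrays, from -0.53 to 0.89, and 57.1% were above 0. For all pairs of genes above the median level the median was 0.04, with 52.6% above 0. The closest pair was Srebf2 and Hmgcs1. Its Pearson r was 0.894 (exact permutation p = 0.0833, adjusted over the 21 pairs 0.875) and Spearman's rho 0.771 (exact permutation p = 0.194, adjusted 1). With the other enzymes Srebf2 had an r of 0.56 for Sqle, 0.21 for Fdps, -0.13 for Cyp51, -0.19 for Dhcr7 and -0.32 for Idi1. Idi1 and Cyp51 were the next closest pair, with r = 0.876 (exact permutation p = 0.0833, adjusted 0.875) and rho = 0.886 (exact permutation p = 0.0833, adjusted 1). Without the 2 arrays farthest from the median of the first gene, r was -0.09 for Srebf2 and Hmgcs1 and 0.39 for Idi1 and Cyp51, over the 4 arrays left, whose range in the first gene is narrower. The smallest p that 36 rearrangements allow is 0.0278, so adjustment over 21 pairs left little room for any to pass, and none did.

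The rest of the pathway was read from lists of 72 genes, 63 of which were measured and 9 not analysed here. Of the 23 enzymes listed, 20 were measured, the 6 enzymes above among them, and the ethanol mean was below saline in 16 of the 20. Their median change was -0.05, against 0.00 for all genes and -0.01 for genes above the median level, of which 5546 of 9969 were below saline. Of all 63 genes, 2 were lower at the unadjusted threshold (3.17%, against the 2.41% of all genes) and 0 were higher. None passed after adjustment.

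Both of the genes that were lower are sterol enzymes that act after squalene epoxidase. Lbr encodes the lamin B receptor, a protein of the inner nuclear membrane that is also a sterol reductase. It read 7.40, 7.55 and 7.47 in saline and 7.36, 7.19 and 7.24 in ethanol, a change of -0.21 ± 0.06, and the limma adjusted p was 0.931. Lss, lanosterol synthase, closes the ring that Cyp51 then demethylates. It read 7.93, 7.89 and 7.96 in saline and 7.86, 7.77 and 7.75 in ethanol, a change of -0.13 ± 0.04 with the same adjusted p. In both genes every ethanol pool was below every saline pool. Groups that did not overlap, in either direction, were found in 10.4% of all genes and in 3 of the 20 measured enzymes. Lbr and Lss were named because they passed the unadjusted threshold, so their separation is partly built into the choice. Lss did not pass the unadjusted threshold without saline pool 3 (-0.12) or without ethanol pool 3 (-0.11), and Lbr passed without any 1 of the 6 arrays.

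By step, 7 of 8 mevalonate and isoprenoid enzymes were below saline, with a median change of -0.04, and none passed the unadjusted threshold. Of the 2 with the highest signal, Hmgcs1 is given above and Ggps1, which makes geranylgeranyl diphosphate, had a change of -0.02 ± 0.04. The exception in this list was Idi2, at 0.03 ± 0.04, whose mean of 4.19 was below the background level of 5.37. Of the 12 sterol enzymes from squalene onward, 9 were below saline, with a median of -0.05. The exceptions were Fdft1, squalene synthase, at 0.01 ± 0.04, Tm7sf2, a sterol reductase, at 0.01 ± 0.06, and Dhcr7.

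**Figure D2:**
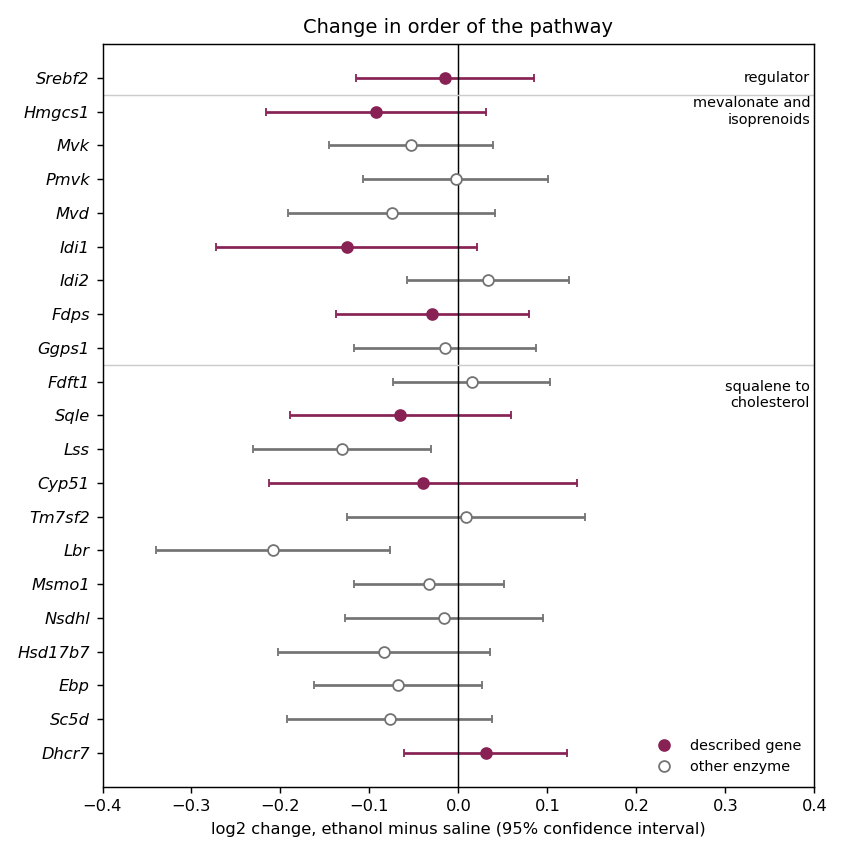
Log2 change, ethanol minus saline, with its 95% confidence interval (horizontal axis) for Srebf2 and the 20 measured enzymes. The enzymes stand in the order of their lists, mevalonate and isoprenoid enzymes above sterol enzymes. Filled points are the 7 genes described and open points other enzymes. The intervals of all 7 filled points include 0, and those of Lss and Lbr lie below it.

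Around the enzymes, none of the lists held a gene past the unadjusted threshold. In the list of SREBP and LXR regulation, 6 of 8 genes were below saline, with a median of -0.03. Insig1 and Insig2, which retain the SREBP precursors in the endoplasmic reticulum, had changes of -0.04 ± 0.04 and -0.06 ± 0.05. The uptake receptors had 4 of 6 below saline and a median of -0.02. Sort1 and Sorl1, sorting receptors that also bind lipoproteins or apolipoprotein E, had changes of -0.04 ± 0.04 and -0.08 ± 0.05. Vldlr and Lrp8, the lipoprotein receptors that also bind reelin, had values of -0.03 ± 0.06 and 0.01 ± 0.05.

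Intracellular transport and esterification had 5 of 9 genes below saline and a median of -0.01. Npc1, which carries cholesterol out of lysosomes, was at -0.07 ± 0.04, and Gramd1b, a carrier from the plasma membrane to the endoplasmic reticulum, at 0.02 ± 0.05. Efflux and turnover had 5 of 10 below saline, with Apoe at 0.03 ± 0.05 and Clu, a further apolipoprotein of the brain, at 0.03 ± 0.05. In the fatty acid list of the related factor SREBP1, 7 of 10 were below saline with a median of -0.01, and Scd2 and Fads2, both desaturases, were at -0.01 ± 0.04 and -0.00 ± 0.04.

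Most markers of myelin also had lower ethanol means. Of 15 measured oligodendrocyte and myelin markers of 16 listed, 14 were below saline. So were 49.9% of all genes and 55.6% of genes above the median level. The unadjusted threshold was passed by 4 of the 15 markers (Mal, Opalin, Tspan2 and Cldn11), and by 2.41% of all genes in this direction. Mbp was the 1 marker above saline, at 0.01 ± 0.04, and the median change of the 15 markers was -0.10. Their mean stood at -0.07, -0.18 and -0.03 in ethanol pools 1, 2 and 3, and from -0.06 to 0.06 in the saline pools, with single markers reading between 8.57 and 12.00 in all arrays. Ethanol pool 2 was lowest of the 6 for these markers and for the mean of the 7 genes, and it was also lowest in 6 of the 7 pathway lists and in 4 of the 9 marker lists, among them astrocytes, choroid plexus and meninges. Astrocyte markers were below saline in 10 of 12, with none past the threshold and a mean from -0.06 to -0.00 in the ethanol pools and from -0.05 to 0.03 in the saline pools. Neuron markers were below saline in 6 of 12, with a median of -0.01. Microglia markers were below saline in 6 of 9, with a median of -0.07, and endothelial and mural markers in 8 of 9, with a median of -0.04, and neither list had a gene past the threshold. How far these markers, and the thalamus and choroid plexus markers, bear on the values of the 7 genes was not tested.

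**Figure D3:**
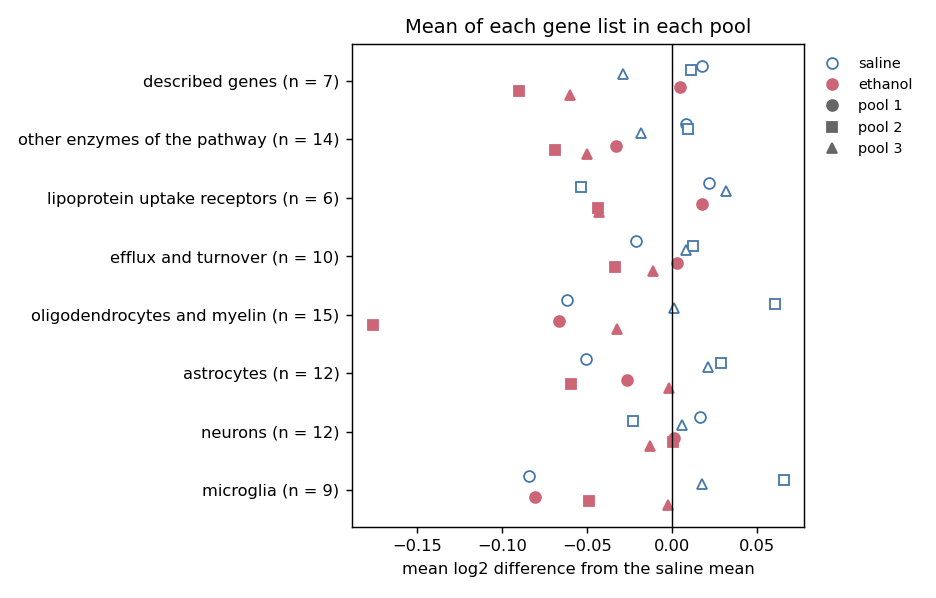
Mean log2 difference from the saline mean (horizontal axis) of each gene list in each pool; open blue symbols are saline, filled red symbols ethanol, and the shape gives the pool of its group. For the 7 genes ethanol pools 2 and 3 lie at -0.09 and -0.06 and ethanol pool 1 at 0.01, and for the myelin markers ethanol pool 2 lies lowest, at -0.18.

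The changes of the 7 genes were recomputed under 16 other settings, 6 of which left out 1 array each. The sign was kept in all 16 by Hmgcs1, Idi1, Sqle and Dhcr7 and turned in at least 1 by Srebf2, Fdps and Cyp51. Hmgcs1 passed the unadjusted threshold under 2 settings, without saline pool 2 and with arrays weighted by their agreement (-0.12), and Idi1 under 1. The other 5 genes passed under none.

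**Figure D4:**
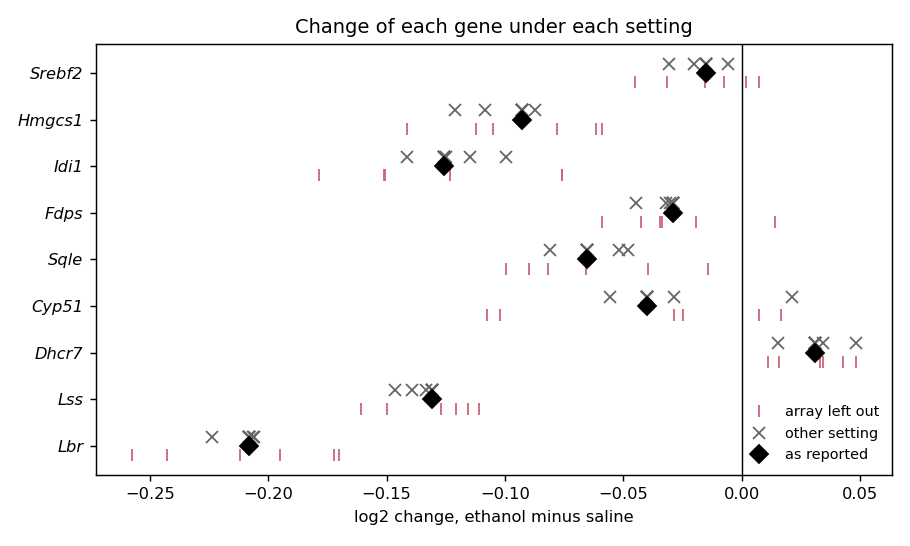
Log2 change, ethanol minus saline (horizontal axis), of the 7 genes and of Lss and Lbr as reported (diamonds), under 10 other settings (crosses) and with each of the 6 arrays left out in turn (red ticks). Lbr stays between -0.26 and -0.17 and Cyp51 runs from -0.11 to 0.02.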

How the data were processed

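Labelled cDNA made from the RNA was hybridised to Affymetrix Mouse Gene 1.0 ST arrays. The authors summarized the probes of each gene with RMA and deposited log2 expression values, 1 for each probe set and array, which were used as deposited. Affymetrix Command Console wrote the probe values. The program that ran RMA, its version and the annotation build: not given in the sources used here. RMA includes a quantile normalization, so a shift shared by all genes cannot be seen. Arrays give no read depth, and their number limits the precision.

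The table held 35556 rows, 12146 of them with no gene symbol, 1621 with several and 21789 with 1. Tests covered the 23410 rows that carried any symbol, and the 19938 genes were each read from their brightest probe set (999 had several). Of the single-symbol identifiers, 99.6% matched a RefSeq gene table (GRCm38.p6) and 0 symbols were updated.

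Groups came from the submitters' treatment labels. Ethanol was compared with saline in limma 3.58.1 (R 4.3.3; lmFit and eBayes, two-sided, no covariate), after the methods' ANOVA, with Benjamini-Hochberg adjustment over the tested probe sets; the procedure was tested on simulated data. On these arrays mice were measured only as pools, so the variation between mice within a group cannot be seen. The p-values set each change against the spread between pools, moderated over all probe sets. The replicate number was not used as a block, since the methods name none. Littermate pups had been divided between the groups, and the sources used here do not say which pools share litters. Same-numbered pools deviated from their group means with correlations of -0.05, -0.02 and 0.06, and other pools with -0.18 to 0.17. With 3 arrays in each group, these values cannot show whether the pools were paired. Pairs of genes were tested by the 36 rearrangements of arrays within groups.

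The genes and lists were chosen with earlier results of these data known. Named were the 7 genes, list genes past the unadjusted threshold (at most 6 a list) or otherwise the 2 of highest signal, the 5 genes most alike, up to 3 genes of a marker list, and 2 further genes that were not analysed here. Mvk, Idi2, Fdft1, Tm7sf2, Vldlr, Lrp8, Mbtps1, Osbpl2, Mbp and Cldn11 were named after their values were seen. Tcf7l2, Synpo2 and Vipr2 were named because the paper reports them.

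Alternatives were the methods' ANOVA without moderation (with 2 groups an equal-variance t-test), the replicate block, median centring, quantile normalization, a filter on dim probe sets, all rows, probe sets with 1 symbol, averaged probe sets, array weights, an intensity trend and each array left out. Python 3.11.15 and matplotlib 3.10.9 were used for summaries and figures. The miRNA, DNA methylation and histone arrays were not analysed here.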

Additional observations from a re-analysis of the deposited data

How the results depend on the processing

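With each array left out in turn, the changes ran from -0.045 to 0.0072 for Srebf2, -0.14 to -0.059 for Hmgcs1, -0.18 to -0.076 for Idi1, -0.059 to 0.014 for Fdps, -0.10 to -0.01 for Sqle, -0.11 to 0.016 for Cyp51, 0.01 to 0.05 for Dhcr7, -0.26 to -0.17 for Lbr and -0.16 to -0.11 for Lss. The sign turned for Srebf2 without saline pool 1 (0.0072) or ethanol pool 2 (0.0019), for Fdps without ethanol pool 2 (0.014) and for Cyp51 without saline pool 2 (0.016) or ethanol pool 3 (0.0074). Leaving out 1 array gave 0 to 1 of the 7 genes past the unadjusted threshold. Of the pathway genes, which include the 7, it gave 1 to 4 lower at that threshold, against 2 with all arrays. It put 4 to 6 of the 7 genes and 14 to 16 of the 20 enzymes below saline. The median change of the enzymes ran from -0.060 to -0.025, the latter without ethanol pool 2.

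With array weights Hmgcs1 passed the unadjusted threshold at -0.12 (limma adjusted p = 0.651) and Cyp51 turned to 0.021. Of the pathway genes, 5 were past the unadjusted threshold, and Hmgcs1, the only 1 of the 7 to pass, is among these 5. Among all probe sets 1793 passed it, against 1202 without weights. The mean of both Idi1 probe sets put its saline level at 9.66 in place of 9.97. Median centring moved the median change of all probe sets to -0.01 and the split of those past the unadjusted threshold from 638 higher and 564 lower to 405 and 815; under it 6 of the 7 genes and 18 of the 20 enzymes were below saline. With the replicate number as a block, 0 of the 7 genes passed the unadjusted threshold and 2 pathway genes were lower, as without it, and Hmgcs1 and Idi1 stayed at -0.09 and -0.13. No gene of the 7 passed the adjusted threshold under any of the 16 settings. The cause of these differences was not tested. Medians and counts of genes below saline were added after seeing the data.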

Other observations

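Among 9820 genes above the median level and outside the lists, those whose values over the 6 arrays were most like the mean of the 7 genes were Grasp (r = 0.971), Tgfbrap1 (r = 0.971), Afg3l1 (r = 0.969), Zzef1 (r = 0.965) and Wrn (r = 0.965). Their changes in ethanol ran from -0.16 ± 0.07 for Wrn to -0.02 ± 0.04 for Tgfbrap1, and none passed the unadjusted threshold. Within the pathway the most alike were Mbtps1, the protease that makes the first cut in SREBP precursors (r = 0.933), Osbpl2, an oxysterol-binding protein (r = 0.892), and Mvk, mevalonate kinase (r = 0.892). Mvk read 8.28, 8.31 and 8.28 in saline and 8.27, 8.19 and 8.24 in ethanol, a change of -0.05 ± 0.04. Its groups did not overlap, as was so in 10.4% of all genes. These are correlations over 6 arrays that share the same pools, chosen as the highest of many, and are given as a description. Group means were not taken off first, so the lower ethanol mean of the 7 genes is part of what was matched. The lower ethanol values of the genes named here are therefore partly built into the choice.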
